A study of Rattus norvegicus with 48 samples.

Results

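The miR-183/96/182 cluster is a set of 3 mature miRNAs, rno-miR-182, rno-miR-183-5p and rno-miR-96-5p (rno for rat, left out below), that are cut from hairpins lying close together on a single chromosome strand. They were found by name among the 645 mature miRNAs counted in rat plasma, where 4 names matched, the 3 members and miR-183-3p, the opposite arm of the miR-183 hairpin. The plasma came from 12 male rats, 6 strong and 6 weak regenerators, and was drawn from the tail vein 4 times, at week 0 as a baseline ahead of surgery and then 1, 4 and 8 weeks later. All 12 rats were sampled each time, so that 48 samples were sequenced. Each rat had a round calvaria defect of 8 mm, made at 12 weeks of age, that was left empty or filled with a collagen hydroxyapatite scaffold, which was used plain, with a plasmid for BMP2 and miR-590-5p, or with extracellular vesicles of human mesenchymal stromal cells. The sources differ on the strain, which is named Sprague-Dawley in the methods and Wistar elsewhere. The groups were the best and the worst healing animals by bone volume in microCT across all treatments, and the treatment of each rat was not mapped here, so that regeneration and treatment cannot be told apart. The study states that treatments were uneven between the groups. The plain scaffold occurred among strong regenerators only, and the plasmid scaffold was more frequent among weak ones. Baseline samples carry no regeneration group in their labels and were assigned by animal.

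In vertebrates, the cluster is transcribed as a single precursor and is best known from sensory cells, such as photoreceptors and the hair cells of the inner ear, where mutations in the seed of miR-96 cause hearing loss. It is also abundant in epithelia and in some endocrine and neural cells. A miRNA finds its messenger RNAs mainly through the seed near its 5′ end, and the seeds in this cluster are so alike that its members share part of their targets.

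The mature sequences show how alike the members are. They are given 5′ to 3′ from RefSeq on the build GRCr8, with the seed (bases 2 to 8) in capitals. All lie on the minus strand of chromosome 4.
miR-182, chr4:59752249-59752273: uUUGGCAAugguagaacucacaccg
miR-183-5p, chr4:59756106-59756127: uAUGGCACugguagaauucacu
miR-96-5p, chr4:59755901-59755923: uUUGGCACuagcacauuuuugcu
miR-183-3p, chr4:59756067-59756087: uGAAUUACcgaagggccauaa

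With positions counted from 1 at the 5′ end and no gaps, miR-182 and miR-183-5p had the same base at 18 of 22 positions and differed within the seed by U2A and A8C. miR-182 and miR-96-5p differed in the seed by A8C alone but had the same base at only 12 of 23 positions. miR-183-5p and miR-96-5p differed in the seed by A2U, with 13 of 22 positions equal. The likeness of miR-182 to miR-183-5p thus ran through the whole molecule, and that of miR-182 to miR-96-5p lay at the 5′ end. Among the 693 mature rat miRNAs of the sequence table, no other miRNA carried the seed of any member, so that no seed relative outside the cluster was found for comparison. The table held a sequence for 583 of the 645 miRNAs in the counts, and the rest were not searched for the seeds.

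The hairpins of Mir96 (chr4:59755841-59755946) and Mir183 (chr4:59756044-59756153) were separated by 97 bases, and that of Mir182 (chr4:59752246-59752307) lay 3533 bases from Mir96. The plus strand opposite Mir183 carries another annotated miRNA, miR-3553 (chr4:59756105-59756127), whose sequence contains the complement of miR-183-5p. miR-3553 is not listed in the counts.

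Levels are given as RPM, in which the reads of a miRNA are divided by all miRNA reads of the sample and multiplied by 1000000. The libraries held between 393259 and 1586398 miRNA reads (median 796311). At this depth miR-182 had between 23 and 271 reads per sample and miR-183-5p between 34 and 320, while miR-96-5p had at most 23 and miR-183-3p at most 18. Reads of the extraction spike-in UniSp2 per 1000 miRNA reads lay between 91.1 and 144 at week 8, against 23.3 to 60.4 at all earlier time points, so that miRNA was scarcer relative to the spike-in in every sample of week 8. The ratio of miR-451-5p to miR-23a-3p, a marker of lysed red blood cells, had a median of 4.93 at baseline, and of 6.70, 5.89 and 8.18 at weeks 1, 4 and 8.

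The cluster was a minor part of plasma miRNA, and its members were not equally abundant. miR-183-5p had a mean of 122 RPM over the 48 samples (rank 162 of 645) and miR-182 a mean of 112 RPM (rank 166), and both were read in every sample. miR-96-5p had a mean of 6.87 RPM (rank 333) and was read in 44 of 48 samples, close to the 8.24 RPM that was the median of all miRNAs. miR-183-3p, the arm of the hairpin that is usually degraded, had a mean of 6.19 RPM and was read in 45 samples.

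Within samples, the ratio of miR-182 to miR-183-5p had a median of 0.932 and stayed between 0.516 and 1.38. miR-182 exceeded miR-96-5p by a median factor of 15.5, with a range from 3.59 to 141. For miR-183-5p over miR-96-5p the median was 18.8. The ratio of the arms of the miR-183 hairpin, 5p to 3p, had a median of 17.6 and a range from 5.92 to 109. The ratios between the abundant members were thus far tighter than those with miR-96-5p or miR-183-3p, whose few reads carry large counting errors. These ratios set different sequences side by side, and the efficiency of ligation for each was not measured.

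To describe the time course, the levels of each member were first compared over all 12 rats. miR-182 averaged 120 ± 40.7 RPM (SD, n = 12) at baseline, and 90.4 ± 20.8, 134 ± 112 and 104 ± 62.6 RPM at weeks 1, 4 and 8. Its medians were 107, 95.7, 80.4 and 71.4 RPM, so that the week with the highest mean had a median below those of baseline and week 1. In order of the means, week 4 stood first, followed by baseline, week 8 and week 1, and all ranges overlapped.

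miR-183-5p averaged 117 ± 38.0 RPM at baseline, and 97.4 ± 30.8, 151 ± 111 and 120 ± 51.7 RPM at weeks 1, 4 and 8 (SD, n = 12). Its medians were 107, 90.7, 109 and 97.2 RPM, and its order by mean ran from week 4 over week 8 and baseline to week 1. For both members the spread between rats was widest at week 4, with a coefficient of variation of 83.4% for miR-182 and 73.2% for miR-183-5p, against 23% and 31.6% at week 1.

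miR-96-5p averaged 7.11 ± 5.69 RPM at baseline, and 6.95 ± 4.61, 8.97 ± 12 and 4.46 ± 3.41 RPM at weeks 1, 4 and 8 (SD, n = 12). It was at 0 reads in 4 samples, 1 of baseline, 2 of week 4 and 1 of week 8, where the limit allowed by 0 counts (3 counts of the total) lay between 3.47 and 4.99 RPM. Most of its levels were thus within a few reads of the floor. miR-183-3p averaged 7.87 ± 3.49 RPM at baseline, and 4.73 ± 3.04, 7.46 ± 3.67 and 4.71 ± 4.33 RPM at weeks 1, 4 and 8.

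**Figure D1:**
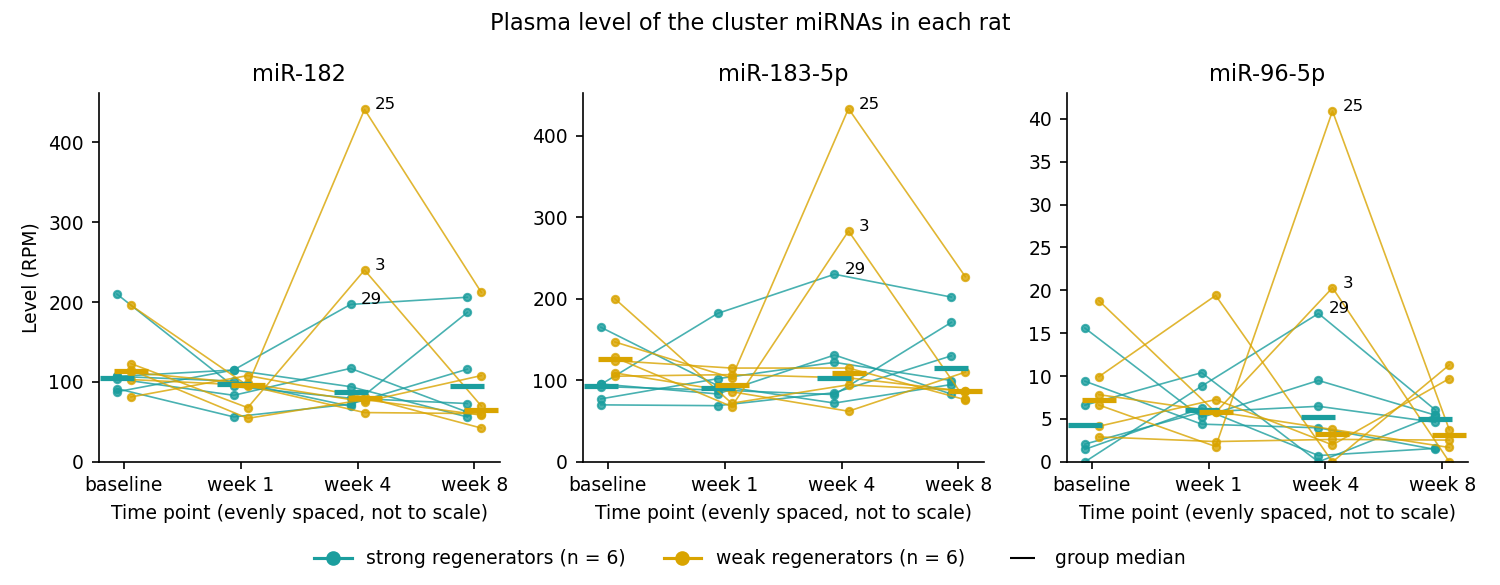
Level in RPM (y axis, linear, a separate scale for each miRNA) of miR-182, miR-183-5p and miR-96-5p at baseline and weeks 1, 4 and 8 (x axis) in each of 12 rats. Points joined by a line are 1 rat, colors are the regeneration groups and thick bars are group medians of 6 rats. At week 4, rats 25, 3 and 29 stand above the others for all 3 miRNAs, with miR-182 at 441, 240 and 197 RPM.

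No member of the cluster changed from baseline at any week by the edgeR quasi-likelihood test with Benjamini-Hochberg adjustment at an FDR of 0.05. At week 1, 0 of the 2 members that passed the abundance filter were called, beside 21.6% of the 232 miRNAs tested. At week 4, 0 of 3 members were called beside 4.19% of 645 miRNAs, and at week 8, 0 of 3 beside 40.3% of 620 miRNAs. The p-values of this fit treat the 4 samples of a rat as independent.

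miR-182 had a fold change of 0.797 at week 1 (95% interval 0.563 to 1.13, FDR 0.374), of 1.13 at week 4 (0.80 to 1.59, FDR 0.764) and of 0.892 at week 8 (0.629 to 1.26, FDR 0.63). On the log2 scale these changes were -0.33 ± 0.25, 0.17 ± 0.25 and -0.17 ± 0.25 (SE). Against its own baseline it was higher in 3 of 12 rats at week 1, and in 4 at each later week. The higher mean of week 4 was thus not seen in most of the animals, and without rat 25 the log2 change at week 4 was -0.12.

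miR-183-5p had a fold change of 0.881 at week 1 (95% interval 0.649 to 1.2, FDR 0.584), of 1.31 at week 4 (0.971 to 1.78, FDR 0.346) and of 1.06 at week 8 (0.778 to 1.44, FDR 0.821). It was higher than at baseline in 3 rats at week 1 and in 6 of 12 at weeks 4 and 8. Its log2 change at week 4 was 0.39, and 0.02 (FDR 0.982) without weak rats 3 and 25, which was tried after seeing the data. Both rats had the highest levels of week 4, so a lower change followed from their choice. miR-96-5p was too low to enter the adjustment at week 1, and its fold changes of 1.15 at week 4 (0.59 to 2.26, FDR 0.879) and 0.656 at week 8 (0.308 to 1.40, FDR 0.372) had intervals that held a 2-fold change. miR-183-3p had a fold change of 0.64 at week 8 (0.383 to 1.07, FDR 0.155). For miR-182 and miR-183-5p, by contrast, the intervals of all 3 weeks held no 2-fold change.

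**Figure D2:**
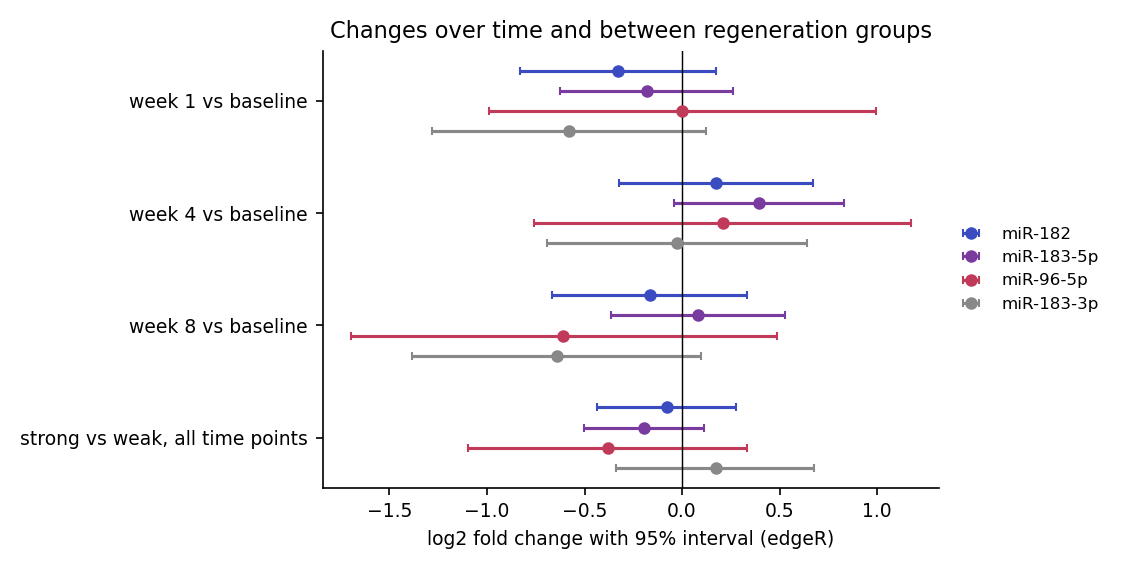
The x axis gives log2 fold changes with 95% intervals from edgeR for miR-182, miR-183-5p, miR-96-5p and miR-183-3p, in 4 comparisons on the y axis (weeks 1, 4 and 8 against baseline, strong against weak regenerators over all time points). Every interval crosses 0, and those of miR-96-5p are the widest of the 3 members.

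From week 1 to week 4, miR-183-5p had a fold change of 1.49 (95% interval 1.10 to 2.02) with an unadjusted p of 0.0112 and an FDR of 0.33 in edgeR. miR-182 had a fold change of 1.41 (FDR 0.406). miR-183-5p was higher at week 4 in 7 of 12 rats and miR-182 in 6, and rat 25 had the largest rise of both, 4.17-fold and 4.57-fold on the RPM + 1 scale. At this step edgeR called 0% of 645 miRNAs, while 79 passed an unadjusted p of 0.05. From week 4 to week 8, neither miR-182 (fold 0.791, FDR 0.277) nor miR-183-5p (fold 0.804, FDR 0.253) was called, beside 40% of the 532 miRNAs tested, and neither was called between weeks 1 and 8 (FDR 0.651 and 0.392), beside 33% of 545 miRNAs.

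These changes are relative to the other miRNAs of the sample. When the counts were scaled to UniSp2 reads instead, the log2 change at week 8 was -2.06 for miR-182 (FDR 9.15e-08), -1.82 for miR-183-5p (FDR 1.46e-07) and -2.47 for miR-96-5p (FDR 0.000143). With this scaling, 498 of 645 miRNAs were called lower and 1 higher at week 8, and the median log2 change of the 310 abundant miRNAs was -2.01. All members thus fell with the bulk of plasma miRNA on this scale, and miR-182 and miR-183-5p lay within 0.2 of its median. Whether the plasma of week 8 held less miRNA or more spike-in cannot be told apart, and in plasma fewer releasing cells and less RNA per cell cannot be told apart either.

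The ratio of miR-182 to miR-183-5p needs no scaling, and was compared between time points within each rat. Its median was 1.06 at baseline, and 1.0, 0.85 and 0.832 at weeks 1, 4 and 8. On the log2 scale it averaged 0.03 ± 0.33 (SD) at baseline and -0.31 ± 0.32 at week 8, and was lower at week 8 than at baseline in 10 of 12 rats. An exact permutation test of the 12 within-rat differences (sign flips, two-sided) gave p = 0.019 for week 8 and p = 0.0586 for week 4, when 9 rats were lower, but after adjustment over the 9 ratio tests these were 0.171 and 0.264, so that no difference passed the threshold. The ratios of miR-182 and miR-183-5p to miR-96-5p had adjusted p-values of at least 0.442 at every week in the same exact permutation test.

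The study asked which circulating miRNAs tell strong from weak regenerators, and the members were compared between these groups. In strong regenerators, the lowest, median and highest levels of miR-182 were 87.7, 105 and 210 RPM (baseline), 56.3, 97.8 and 115 RPM (week 1), 69.5, 86.9 and 197 RPM (week 4), and 56.2, 94.4 and 206 RPM (week 8). In weak regenerators, they were 81.2, 113 and 196 RPM (baseline), 54.5, 95.7 and 108 RPM (week 1), 61.7, 79.5 and 441 RPM (week 4), and 42.3, 65.1 and 212 RPM (week 8). The groups overlapped at every time point.

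miR-183-5p in strong regenerators had lowest, median and highest levels of 69.9, 93.6 and 165 RPM (baseline), 68.9, 90.7 and 182 RPM (week 1), 72.1, 103 and 230 RPM (week 4), and 83.1, 115 and 202 RPM (week 8). In weak regenerators, its levels were 105, 126 and 200 RPM (baseline), 67.8, 94.5 and 115 RPM (week 1), 62.1, 109 and 433 RPM (week 4), and 76.2, 86.9 and 227 RPM (week 8). At baseline all weak regenerators lay above the median of the strong ones, but the ranges overlapped through 1 strong regenerator, rat 2 at 165 RPM.

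miR-96-5p had medians of 4.34, 6.04, 5.23 and 5.03 RPM in strong and of 7.23, 5.82, 3.20 and 3.15 RPM in weak regenerators at baseline and weeks 1, 4 and 8. Its highest level was 17.3 RPM in strong and 40.9 RPM in weak regenerators, both at week 4, and it reached 0 reads in both groups. The groups overlapped at every time point for this member too.

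Over all time points, no member passed the test between strong and weak regenerators. The fold change of strong over weak in edgeR was 0.947 for miR-182 (95% interval 0.74 to 1.21, FDR 0.911), 0.875 for miR-183-5p (0.706 to 1.08, FDR 0.736) and 0.768 for miR-96-5p (0.467 to 1.26, FDR 0.758). None of the 3 members was called, beside 0% of 645 miRNAs, of which 64 had an unadjusted p under 0.05. DESeq2 and limma-voom called 0 miRNAs as well. The study, by contrast, reports significant differences between these groups over all time points for miRNAs outside the cluster. With each rat reduced to the mean of its 4 samples on the log2(RPM + 1) scale, miR-182 stood at 6.67 ± 0.29 in strong and 6.64 ± 0.46 in weak regenerators (SD, n = 6 each; exact permutation test, p = 0.89). The same exact permutation test gave p = 0.541 for miR-183-5p (6.75 ± 0.34 against 6.85 ± 0.40) and p = 0.496 for miR-96-5p (2.40 ± 0.52 against 2.60 ± 0.43), all 3 unadjusted.

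At single time points, the FDR of edgeR between the groups was at least 0.725 for every member. The nearest to a difference was miR-183-5p at week 4, with a fold change of 0.683 (95% interval 0.45 to 1.04, FDR 0.851), where weak rats 3 and 25 were the highest samples. None of the 3 members was called at baseline, week 1 or week 4, beside 0% of all miRNAs, or at week 8, beside 0.155%. At an unadjusted p under 0.05 there were 42, 32, 25 and 35 miRNAs at the 4 time points. The difference between the groups in the change from baseline had an FDR of at least 0.91 for every member and week, with 0% of all miRNAs called, and 27, 38 and 26 at an unadjusted p under 0.05 for weeks 1, 4 and 8. Without weak rats 3 and 25, which was tried after seeing the data, the log2 difference over all time points turned from -0.08 to 0.25 for miR-182 and from -0.19 to 0.08 for miR-183-5p, and its FDR was 0.65 and 0.942. Both rats had the highest levels of week 4, so the direction of this shift followed from their choice. Without strong rat 29, which was high at week 4 too, the difference was -0.17 for miR-182 (edgeR FDR 0.799). For miR-183-5p it was then -0.33 (edgeR, unadjusted p = 0.0411, FDR 0.422).

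A small number of samples had high levels of both miR-182 and miR-183-5p. A gap in the levels, seen in the data, lay between 123 and 187 RPM for miR-182 and between 147 and 165 RPM for miR-183-5p. With a limit of 150 RPM in this gap, 8 of 48 samples were high for miR-182 and 9 for miR-183-5p, and all 8 were high for both. They came from 6 rats, 3 strong and 3 weak regenerators, and only rats 25 and 29 were high more than once.

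Rat 25, a weak regenerator, had the highest levels of the series at week 4, with 441 RPM of miR-182 (95% Poisson interval 384 to 504, from 216 reads), 433 RPM of miR-183-5p (377 to 495) and 40.9 RPM of miR-96-5p (25 to 63.1). At baseline the same rat had 103, 147 and 6.63 RPM. It was still high at week 8, with 212 and 227 RPM of miR-182 and miR-183-5p. miR-96-5p was then at 3.75 RPM, from only 2 reads (95% Poisson interval 0.455 to 13.6). The intervals cover counting error only.

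Rat 3, a weak regenerator, had 240 RPM of miR-182, 283 RPM of miR-183-5p and 20.3 RPM of miR-96-5p at week 4, and 18.8 RPM of miR-96-5p already at baseline. Rat 29, a strong regenerator, had 197, 230 and 17.3 RPM at week 4, and at week 8 it had 206, 202 and 6.06 RPM. At week 1 it was high for miR-183-5p alone, with 182 RPM beside 115 RPM of miR-182. The remaining high samples were strong regenerator 2 (210 and 165 RPM of miR-182 and miR-183-5p) and weak regenerator 16 (196 and 200 RPM) at baseline, and strong regenerator 23 (187 and 171 RPM) at week 8. miR-96-5p was not read at a high level in all of these samples, with 1.45 RPM in rat 23 at week 8. That value came from 1 read (95% Poisson interval 0.0368 to 8.1 RPM). High levels were thus found in both groups and at every time point.

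**Figure D3:**
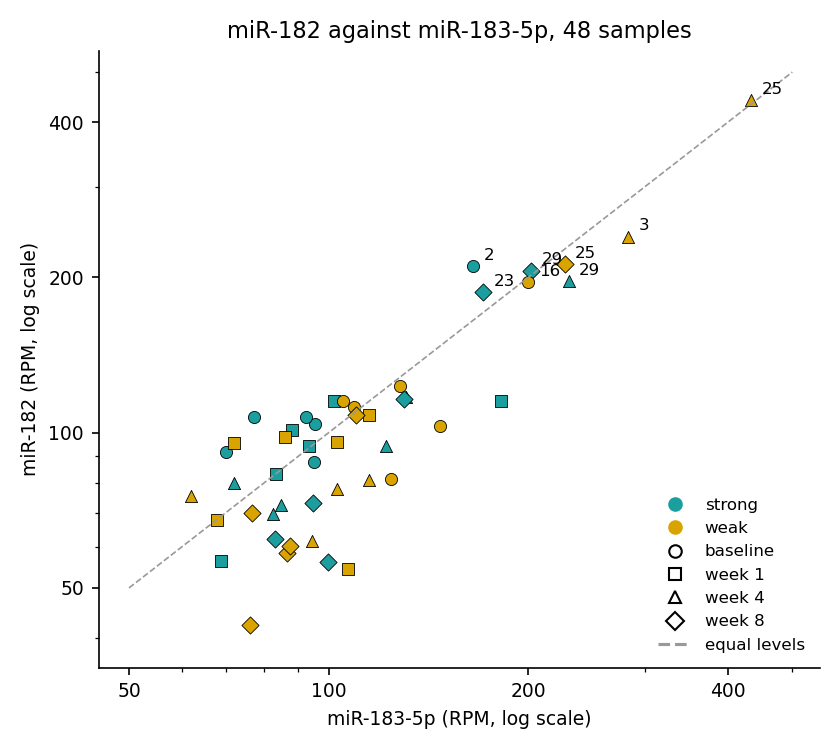
Level of miR-182 (y axis) against miR-183-5p (x axis), both in RPM on log scales, in 48 samples. Colors are the regeneration groups, symbols the time points, numbers the rats above 150 RPM, and the dashed line marks equal levels. The samples follow the line up to rat 25 at week 4, and most samples of week 8 lie below it.

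Over the 12 rats of a time point, the correlation of miR-182 with miR-183-5p was highest at weeks 4 and 8, and the difference between time points was not tested. Pearson's r of log2(RPM + 1) was 0.71 at baseline and 0.49, 0.96 and 0.95 at weeks 1, 4 and 8, with Spearman's rho of 0.52, 0.52, 0.85 and 0.83. Over 100000 permutations, and adjusted over the 24 correlations between members, the p of r was 0.038, 0.171, 0.00048 and 0.00048, and that of rho was 0.162, 0.162, 0.00632 and 0.0072. Without the 2 rats farthest from the median in miR-182, r was 0.18 at baseline and 0.72, 0.86 and 0.92 at weeks 1, 4 and 8. The relation at baseline thus rested on rats 2 and 16. Among the 9 rats at or below 150 RPM, r was 0.61 at week 4 and 0.81 at week 8, given as a description since these rats were set apart by their levels.

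miR-96-5p followed the other members less closely. Its r with miR-182 was 0.50, 0.46, 0.77 and -0.09 at baseline and weeks 1, 4 and 8, and only that of week 4 passed the adjustment over permutations (p = 0.0118, with rho 0.54 and p = 0.162). Without rats 3 and 25, r at week 4 was 0.49, so that the relation rested on these rats. With miR-183-5p, its r was 0.54, 0.20, 0.68 and 0.05, and none passed the adjustment (p = 0.0509 at week 4 over permutations). At week 8, where the summed reads of miR-96-5p over 12 rats were 36, the precision of these values is limited by counting.

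The other miRNAs whose levels were most like those of the cluster were then listed by Pearson's r of log2(RPM + 1) over the 48 samples, among 309 miRNAs of 10 RPM or more on average (310 for miR-96-5p). Samples share rats, depth and scaling, so the values are a description. For miR-182 they were miR-200c-3p (r = 0.86), miR-183-5p (0.85) and miR-31a-5p (0.85), and for miR-183-5p they were miR-429 (0.89), miR-182 (0.85) and miR-200c-3p (0.83). miR-200c and miR-429 belong to the miR-200 family, which keeps epithelial cells in their epithelial state. Each of the abundant members thus had its neighbour in the cluster as the second of all miRNAs.

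For comparison, the median r over all miRNAs was 0.12 with miR-182 and 0.07 with miR-183-5p, and r over 0.7 was found for 9 and 7 miRNAs. For miR-96-5p the nearest were miR-365-3p (0.58), miR-31a-5p (0.49) and miR-203a-3p (0.48), and miR-182 was ninth with 0.43. With the means of the time points removed, the same 3 miRNAs led for miR-182 and for miR-183-5p, whereas 1 of 3 remained for miR-96-5p.

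A list of 11 miRNAs of epithelial, sensory and endocrine cells was compared with the cluster, namely the 5 members of the miR-200 family (miR-200a-3p, miR-200b-3p, miR-200c-3p, miR-141-3p and miR-429), miR-203a-3p and miR-205 of the skin, miR-375-3p and miR-7a-5p of endocrine cells, and miR-124-3p and miR-9a-5p of neurons. Of the 10 list members that were abundant enough for this comparison, 7 had an r over 0.5 with miR-182 and 7 with miR-183-5p, beside 5.18% and 3.88% of all miRNAs compared. Of the 10 highest places, list members held 7 for miR-182 and 6 for miR-183-5p. With miR-96-5p, 0 of 10 had an r over 0.5.

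**Figure D4:**
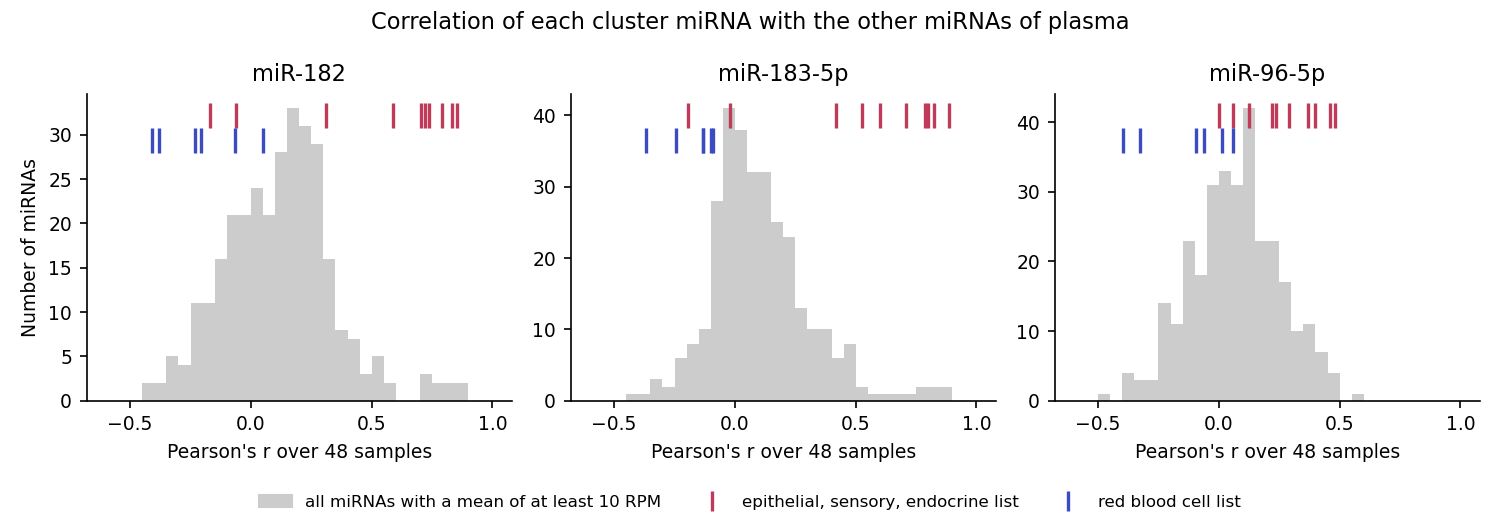
Histograms of Pearson's r over 48 samples (x axis) between miR-182, miR-183-5p or miR-96-5p and the other miRNAs that averaged 10 RPM or more (y axis, number of miRNAs). Red marks are the epithelial, sensory and endocrine list and blue marks the red blood cell list. For miR-182 and miR-183-5p, 7 red marks lie above 0.5 and the blue marks lie at or below the median of all miRNAs.

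All 11 miRNAs of this list were present in plasma, miR-124-3p at 0 reads in 9 samples and the other 10 in every sample. Their summed level ranged at baseline from 13800 to 23900 RPM in strong and from 12400 to 37600 RPM in weak regenerators, and at week 1 from 11200 to 32800 and from 9810 to 21800 RPM. At week 4 it ranged from 11000 to 48900 and from 8590 to 101000 RPM, and at week 8 from 11900 to 34300 and from 9150 to 39500 RPM. As for the cluster, the groups overlapped throughout and the highest sum was that of rat 25 at week 4. The largest parts of the sum were the skin miRNAs miR-203a-3p and miR-205, with means of 12600 and 4770 RPM over the 48 samples. No other list member averaged above 2220 RPM, so that the sum mainly follows these skin miRNAs.

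The high samples of the cluster were for the most part high in this list. Rats 25, 3 and 29 held its 3 highest sums at week 4, with 101000, 55900 and 48900 RPM against a median of 16500 RPM over 12 rats. At week 8, rats 25, 23 and 29 again held the 3 highest sums, with 39500, 34300 and 32500 RPM against a median of 18600 RPM. At week 1, rat 29 held the highest sum (32800 RPM). At baseline the order was different, with rat 16 at rank 2 of 12 (25900 RPM) and rat 2 at rank 5 (21500 RPM). The highest sum at baseline was that of rat 3 (37600 RPM), whose miR-182 (123 RPM) and miR-183-5p (128 RPM) were not high.

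Single miRNAs of the skin and the miR-200 family showed the same animals. In rat 25, miR-205 stood at 4880 RPM at baseline and 31300 RPM at week 4, miR-203a-3p at 12400 and 60800 RPM, and miR-200c-3p at 220 and 981 RPM. In rat 3, miR-203a-3p stood at 24900 and 39500 RPM, and miR-205 at 8880 and 9490 RPM. In rat 29, miR-203a-3p stood at 8290 and 32000 RPM, and miR-200c-3p at 312 and 543 RPM. Rat 3 thus differed from the others in that it was high in the skin miRNAs before surgery too.

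Over the 12 rats of a time point, the correlation of the summed list with miR-183-5p was 0.58 at baseline and 0.62, 0.98 and 0.84 at weeks 1, 4 and 8 (Pearson's r, log2 scale). Spearman's rho was 0.54, 0.39, 0.93 and 0.75. Over 100000 permutations, adjusted over 112 correlations with 7 measures chosen after seeing the data, the p of r was 0.208, 0.168, 0.00112 and 0.0108, and that of rho was 0.275, 0.494, 0.00168 and 0.0536. The unadjusted p at week 4, 1e-05, is the smallest these permutations can give. Without the 2 rats with the most distant list sums, r was 0.73, 0.71, 0.95 and 0.75, and among the 9 rats at or below 150 RPM it was 0.88 at week 4 and 0.45 at week 8.

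With miR-182, r of the list was 0.33 at baseline and 0.82, 0.96 and 0.86 at weeks 1, 4 and 8, and rho was 0.27, 0.65, 0.84 and 0.76. The p of r over permutations, adjusted over the same 112, was 0.577, 0.0142, 0.00523 and 0.00941, and that of rho was 0.651, 0.143, 0.0157 and 0.0536. Without the 2 most distant rats, r was 0.43, 0.73, 0.86 and 0.77, and among the 9 rats at or below 150 RPM it was 0.49 at week 4 and 0.57 at week 8. Both members thus followed the summed list, led by its skin miRNAs, at week 4 by r and rho. At week 8 they did so by r only, since rho did not pass the adjustment over permutations (p = 0.0536 for both). At week 1, miR-182 followed the list by r only, and miR-183-5p by neither r nor rho. Among the 11 rats at or below 150 RPM at week 1, r was 0.83 for miR-182 and 0.32 for miR-183-5p. At baseline neither relation passed the adjustment, and among the 10 such rats r was 0.18 for miR-182 and 0.56 for miR-183-5p. The part of epithelial cells in the high levels was not tested.

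**Figure D5:**
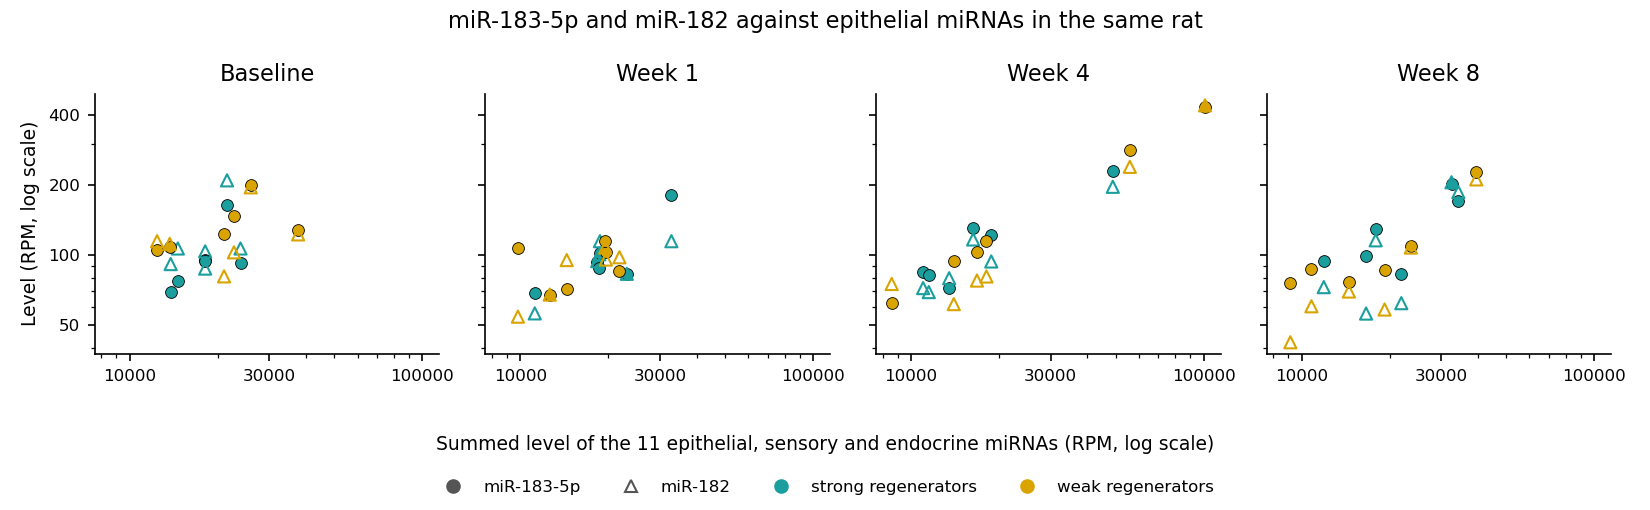
Level of miR-183-5p (circles) and miR-182 (triangles) in RPM (y axis, log scale) against the summed level of the 11 epithelial, sensory and endocrine miRNAs in RPM (x axis, log scale) in the 12 rats of each time point, with colors for the regeneration groups. At week 4, 3 rats with list sums between 48900 and 101000 RPM have the highest levels of both miRNAs.

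Marker by marker, 8 of the 11 miRNAs had an r over 0.5 with each of miR-182 and miR-183-5p at week 4, and 7 at week 8. At week 1 there were 8 for miR-182 and 7 for miR-183-5p. At baseline, 1 of 11 had such an r with miR-182 and 2 with miR-183-5p. At week 4, r with miR-183-5p was 0.98 for miR-203a-3p, 0.98 for miR-205 and 0.92 for miR-429, but 0.28 for the neuronal miR-9a-5p and -0.47 for the endocrine miR-7a-5p. The 7 miRNAs of skin and the miR-200 family had an r over 0.5 with both members at weeks 4 and 8, and of the rest miR-375-3p had one at week 4. The share of all miRNAs with an r over 0.5 at a single time point was not determined, so the counts are a description.

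Markers of blood cells were compared in the same way, again without the share of all miRNAs at each time point. Of the 6 red blood cell miRNAs (miR-451-5p, miR-144-3p, miR-144-5p, miR-486, miR-16-5p and miR-92a-3p), 0 had an r over 0.5 with either member before week 8 and 1 at week 8. Their sum ranged from 235000 to 441000 RPM over all groups, and none of the 6 was at 0 in any sample. At week 4 the sum was lower in rats with more miR-182 (rho = -0.83, adjusted p = 0.0185 over permutations) and miR-183-5p (rho = -0.89, adjusted p = 0.00756), although r was -0.54 and -0.60 with adjusted p of 0.275 and 0.198. All lists are shares of the same miRNA total.

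Of the 5 white blood cell miRNAs, 3 had an r over 0.5 with each of miR-182 and miR-183-5p at weeks 1 and 8, and 0 at baseline and week 4. The correlation of their sum with miR-182 at week 1 was 0.79 (adjusted p = 0.0314 over permutations, rho = 0.74 with p = 0.0581). At week 4 the sign was the opposite, with r of the sum at -0.66 for miR-182 and -0.54 for miR-183-5p (adjusted p = 0.121 and 0.268 over permutations), and with miR-150-5p at -0.71 and -0.59 and miR-142-5p at -0.67 and -0.54. At week 8 r of the sum was 0.65 and 0.73 (adjusted p = 0.124 and 0.0536 over permutations). Of the 5 platelet miRNAs, 2 had an r over 0.5 with miR-182 at weeks 1 and 4 and 0 at baseline and week 8, and with miR-183-5p there were 0, 1, 1 and 2 at baseline and weeks 1, 4 and 8. At week 4 the platelet miRNAs did not agree. With miR-182 and miR-183-5p, r was 0.76 and 0.72 for miR-126a-3p, and 0.53 and 0.46 for miR-126a-5p. It was -0.54 and -0.46 for miR-191a-5p, -0.11 and -0.09 for miR-24-3p, and -0.02 and -0.08 for miR-223-3p. For the platelet sum at week 4, r was -0.20 with miR-182 and -0.18 with miR-183-5p. No other correlation with the white blood cell or platelet lists, the ratio of miR-451-5p to miR-23a-3p, UniSp2 reads or the total count passed the adjustment.

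The lists were also followed over time, in the edgeR fit used for the cluster. At week 1, 5 of 6 red blood cell miRNAs were called, all of them higher, beside 21.6% of all miRNAs tested. None was called among 10 tested miRNAs of the epithelial, sensory and endocrine list, 5 white blood cell and 5 platelet miRNAs. At week 4, 0 of 11 miRNAs of the epithelial, sensory and endocrine list were called, beside 4.19% of all. The same held for 0 of 6 red blood cell, 0 of 5 white blood cell and 0 of 5 platelet miRNAs. At week 8, when 40.3% of all miRNAs tested were called, the counts were 5 of 5 white blood cell miRNAs (2 higher, 3 lower), 4 of 6 red blood cell miRNAs (3 higher, 1 lower) and 1 of 5 platelet miRNAs (lower). Of the epithelial, sensory and endocrine list, 4 of 11 miRNAs were called (2 higher, 2 lower), a share near that of all miRNAs. The higher ones of this list were the endocrine miR-375-3p (fold 1.6, edgeR FDR 0.00222) and the neuronal miR-9a-5p (fold 11.6, FDR 6.96e-07). The lower ones were miR-200a-3p of the miR-200 family (fold 0.553, FDR 0.000991) and the endocrine miR-7a-5p (fold 0.531, FDR 0.00904). The level of miR-9a-5p ranged from 5.04 to 1500 RPM over the 48 samples with a mean of 63.3 RPM, and its dependence on single rats was not tested. Among the skin and miR-200 miRNAs, miR-200a-3p alone was called at week 8. Its r at that week was 0.82 with miR-182 and 0.88 with miR-183-5p. Those closest to the cluster over the 48 samples did not pass the test at week 8, with miR-200c-3p at a fold of 1.12 (FDR 0.63), miR-203a-3p at 1.02 (FDR 0.975), miR-205 at 1.05 (FDR 0.905) and miR-429 at 1.16 (FDR 0.422). No miRNA of any list was called between strong and weak regenerators over all time points. One of them, miR-375-3p, is reported by the study as significantly lower in strong regenerators in this comparison. Here its fold change of strong over weak was 0.738 (95% interval 0.629 to 0.867, edgeR FDR 0.103).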

How the data were processed

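Small RNA libraries of plasma were made by single-adapter ligation. The authors checked reads with FastQC 0.11.9 and MultiQC 1.10, trimmed them with cutadapt 3.3, and mapped them with Bowtie 1.3.0 and miRDeep2 to a genome, followed by the miRBase entries for rat (versions from the submitters' processing notes). The methods name a rat genome, and the labels list GRCh38.p12, which is a human build. The authors deposited raw counts, without normalization, for 645 mature miRNAs and 3 extraction spike-ins, with no molecular identifiers stated. The sources differ on the plasma volume extracted. The miND spike-ins were not used here.

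RPM were computed from the deposited counts over the miRNA total. Tests used R 4.3.3 and edgeR 4.0.16 on all 48 samples, with TMM, the quasi-likelihood method of edgeR 3, an independent filter on mean abundance after DESeq2, and Benjamini-Hochberg adjustment over all miRNAs that passed it, two-sided, with calls at an FDR under 0.05. Terms were the time point, or the time point and the regeneration group. Ratios added 0.5 counts and used 4096 sign flips, and correlations used log2(RPM + 1) and 100000 permutations. Python 3.11.15 with pandas 2.3.3, scipy 1.17.1 and numpy 2.4.6 made the tables, and matplotlib 3.10.9 the plots. The method was checked on simulated data of 645 miRNAs, with 67 changes of 1.5-fold and 67 of 2-fold set at week 8. Of these, 58.2% and 83.6% were called against baseline. The changed miRNAs were drawn from those above a low count limit, and no likeness between samples of a rat was simulated.

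Alternatives were library size, RLE or UniSp2 scaling, filterByExpr or no filter, DESeq2 1.42.0, limma-voom 3.58.1, edgeR 4, a haemolysis covariate, the rat as a block, fewer samples and each rat left out. Sample numbers are animal numbers in the labels, so equal numbers mark a shared rat. The deviations of such samples from group means correlated at a mean of 0.11, against -0.029 between rats, and 6 of 12 rats exceeded 0.1. Limits from 0 counts (3 counts) and Poisson intervals cover counting error only. The miRNAs named are the members, their other arm, the marker lists, and the 3 miRNAs closest to each member. Members and lists were chosen with earlier results of these data known.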

Additional observations from a re-analysis of the deposited data

Results flagged for a closer look

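In 7 of 32 groups of 6 rats, the highest sample stood apart from the next by more than Dixon's 95% limit. For miR-182 these were strong regenerator 2 at baseline, with 210 RPM against 107 RPM in the next rat, weak regenerator 16 at baseline, with 196 against 123 RPM, and strong regenerator 29 at week 4, with 197 against 117 RPM. For miR-183-5p they were strong regenerator 2 at baseline, with 165 against 95.4 RPM, strong regenerator 29 at week 1, with 182 against 102 RPM, and weak regenerator 25 at week 8, with 227 against 110 RPM. For miR-96-5p, weak regenerator 26 at week 1 stood at 19.4 RPM, from 13 reads, against 7.27 RPM in the next rat. Weak rats 25 and 3 at week 4 did not stand apart by this measure, since both were high in the same group. The limit is passed by about 1 in 20 groups only if groups are independent and values normally distributed. Here the same samples recur between miRNAs and RPM were not transformed, so the number of flagged groups cannot be set against that rate.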

How the results depend on the processing

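Of 309 refits of the members under another setting, 3 gave a call, all with UniSp2 scaling at week 8, where the log2 changes were -2.06 (miR-182), -1.82 (miR-183-5p, which changed sign) and -2.47 (miR-96-5p). With this scaling the change of miR-96-5p was -0.33 at week 1 and -0.07 at week 4, and that of miR-182 was -0.01 at week 4. The week 1 change of miR-96-5p, 0.00, was -0.07 by library size, 0.00 with RLE, -0.03 with edgeR 4 and -0.01 with the haemolysis covariate. limma-voom gave 0.00 for miR-182 and -0.33 for miR-96-5p at week 4. The rat as a replicate block in edgeR changed no call (miR-182 at week 4, 0.03, FDR 0.986), nor did the rat as a random effect in voom, which gave 0.00 for miR-182 and -0.33 for miR-96-5p at week 4.

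Without weak rats 3 and 25, chosen after seeing the data, the week 4 changes were -0.32 (miR-182), 0.02 (miR-183-5p) and -0.40 (miR-96-5p), and strong against weak gave 0.25, 0.08 and 0.05 for miR-182, miR-183-5p and miR-96-5p. Both rats had the highest levels of week 4, so the direction of these shifts followed from their choice. With each rat left out in turn, miR-182 ranged from -0.41 to -0.23 at week 1, from -0.12 to 0.33 at week 4 (lowest without rat 25), from -0.31 to -0.03 at week 8 and from -0.17 to 0.10 between groups (highest without rat 25). miR-183-5p ranged from -0.33 to -0.05, from 0.20 to 0.54, from -0.01 to 0.22 and from -0.33 to -0.04, and miR-96-5p from -0.16 to 0.25, from -0.22 to 0.37, from -0.78 to -0.18 and from -0.59 to -0.23. The log2 ratio of miR-182 to miR-96-5p ranged from -0.13 to 0.56 at week 4 and from -0.27 to 0.25 at week 8, where adding 1 count gave -0.02. For these the cause was not tested.

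Without the 2 most distant rats, the correlation of miR-182 fell to 0.18 with miR-183-5p at baseline and to 0.49 with miR-96-5p at week 4, and that of miR-183-5p with miR-96-5p at week 8 was -0.13. With trimmed-mean scaled values, miR-183-5p and miR-96-5p at week 4 correlated at 0.69 (adjusted p = 0.0331 over permutations). With time point means removed, 1 of the 3 miRNAs nearest miR-96-5p remained. The few reads of miR-96-5p and miR-183-3p limit their values to large changes.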
